A study of Mus musculus with 4 samples.

Results

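Semaphorins, plexins, ephrins and Eph receptors are guidance proteins of the cell surface. The members were every gene whose symbol in the authors' table begins with Sema, Plxna to Plxnd, Epha, Ephb, Efna or Efnb followed by a digit. The rule found 51 genes among 25327 named gene rows, namely 20 semaphorins, 9 plexins, 14 Eph receptors and 8 ephrins. The cells were cultured mouse podocytes of a conditionally immortalised kind, a line of the epithelial cells that wrap the glomerular capillaries of the kidney and that is expanded with the help of a thermosensitive T antigen. Both groups had been differentiated for 12 days in low-glucose medium. One group then received 50 nM of a miR-93 mimic (2 libraries) and the other 50 nM of a nontargeting (NT) control mimic (2 libraries), with RNA taken after 48 hours. The stated aim of the series was to find targets of miR-93 in podocytes.

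The deposited table gives 1 FPKM value per gene and group (fragments counted per length of transcript and per size of library), calculated by the authors over both libraries. No value per library was used, so no spread between replicates, no depth of a library and no test of the difference could be given for any value below. A difference is therefore described by its size and by how common that size was among all named genes. The conditions are called q1 and q2 in the table, and neither name is tied to a group there. Here q1 was taken to be the miR-93 mimic, since a supplement of the study shows 1 row of the table under the names of the groups. If that reading were wrong, every direction below would turn round.

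Class 3 semaphorins are secreted ligands that usually bind a neuropilin, which passes the signal through a class A plexin, whereas classes 4 to 7 are tethered to the membrane and mostly bind plexins directly. Plexins act on small GTPases and through them on actin and integrin adhesion. Ephrins of the A type are held by a lipid anchor and those of the B type span the membrane, and binding to an Eph receptor on a neighbouring cell can signal in both cells. In the glomerulus, secreted Sema3a acts on podocytes, whose foot processes depend on a tightly regulated actin cytoskeleton.

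miR-93 lowers mRNAs mainly through its seed, bases 2 to 8, which pairs with matches in 3′ UTRs. The mature strand and its partner strand from RefSeq (build GRCm38.p6) are shown with the seed in capitals. Matches to the miR-93-5p seed were searched for in the 3′ UTRs below.
mmu-miR-93-5p: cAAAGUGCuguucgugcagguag
mmu-miR-93-3p: aCUGCUGAgcuagcacuucccg
The miR-93-5p strand lies at chr5:138165574-138165596 on the minus strand, within the RefSeq bounds of the gene Mcm7. Its seed is shared by miR-17-5p, miR-20a-5p, miR-20b-5p, miR-106a-5p, miR-106b-5p and miR-6383, so a match cannot be assigned to miR-93 by sequence alone. The matches searched were the 8mer GCACTTTA, the 7mer-m8 GCACTTT, the 7mer-A1 CACTTTA and the 6mer CACTTT, on the sense strand of the longest annotated 3′ UTR of each gene (GENCODE M21, GRCm38). The classes nest, so a gene was placed by its best match.

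The 8mers of the members are shown here because Sema7a holds one, the only member past a log2 ratio of 0.5 in size among those whose mean FPKM reached 1. The match is in capitals within a window of 28 bases of the 3′ UTR.
Sema7a: cttatctcttctcaatGCACTTTAataa
Plxna1: gggtgtttgttcgcaaGCACTTTAgcat
Sema4b: ttttttttaataagatGCACTTTActtt
Epha4: agtttacctcatccatGCACTTTAattg
Epha7: gtttaacctcagtataGCACTTTAcaat
Sema5a: acaaacaaataaccagGCACTTTAatct
All these windows lie in exonic 3′ UTR sequence of build GRCm38. The Sema7a window is at chr9:57962803-57962830 (plus strand), with the match at bases 1218 to 1225 of a 3′ UTR of 1264 bases. The Plxna1 window is at chr6:89317251-89317278 (minus strand), with the match at bases 2114 to 2121 of 3062. The Sema4b window is at chr7:80226341-80226368 (plus strand; bases 1022 to 1029 of 1192) and that of Epha4 at chr1:77373673-77373700 (minus strand; bases 49 to 56 of 3310). The Epha7 window is at chr4:28966144-28966171 (plus strand; bases 2157 to 2164 of 3496) and that of Sema5a at chr15:32689808-32689835 (plus strand; bases 409 to 416 of 6926). In Plxna1 and Epha7 the shortest annotated 3′ UTR lacks the 8mer, so that 4 of the 6 genes hold it under either choice.

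Among the 28 members whose mean FPKM over the groups reached 1 (the floor used below), Sema7a alone differed by 0.5 or more on the log2 scale. The study used the same minimum size together with limits on the P value and the false discovery rate, which were not applied here. Sema7a, a semaphorin held to the membrane by a lipid anchor, was at 12.9 FPKM with the miR-93 mimic, against 21.4 with the NT mimic. The level with the NT mimic was 1.67-fold that with the miR-93 mimic, and the log2 ratio of miR-93 mimic over NT mimic, taken on FPKM plus 0.1 here and throughout, was −0.73. Of these 28 members, 1 was lower and 0 were higher by this size. Over all 10855 named genes above the floor, 3.83% were lower and 1.81% higher by as much, so a count of 1 lower member is near the background. Among the 4322 named genes with a mean FPKM of 5 to 20, 3.26% were lower by 0.5 or more and 0.717% had a log2 ratio as low as that of Sema7a. Its row covers 57787941 to 57810672 on chromosome 9 in build mm9 and shares its locus with no other row.

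The log2 ratios of the members above the floor were spread about as widely as those of all named genes. The median log2 ratio of the 28 members was −0.08, beside −0.09 for all named genes above the floor, and 20 of the 28 (71.4%) were within 0.25 of 0, beside 76.4% of all named genes. Of the members, 18 were below 0 and 10 above, or 13 below and 15 above the median of all genes. Summed over the semaphorins, FPKM was 318 with the miR-93 mimic, against 338 with the NT mimic. The plexins summed to 253 with the miR-93 mimic, against 279 with the NT mimic, and the ephrins to 76 with the miR-93 mimic, against 81.3 with the NT mimic. The Eph receptors had the lowest log2 ratio of sums, −0.30, at 104 with the miR-93 mimic, against 128 with the NT mimic. Epha2 alone made up 63.6% of the Eph sum with the miR-93 mimic, against 67.6% with the NT mimic.

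**Figure D1:**
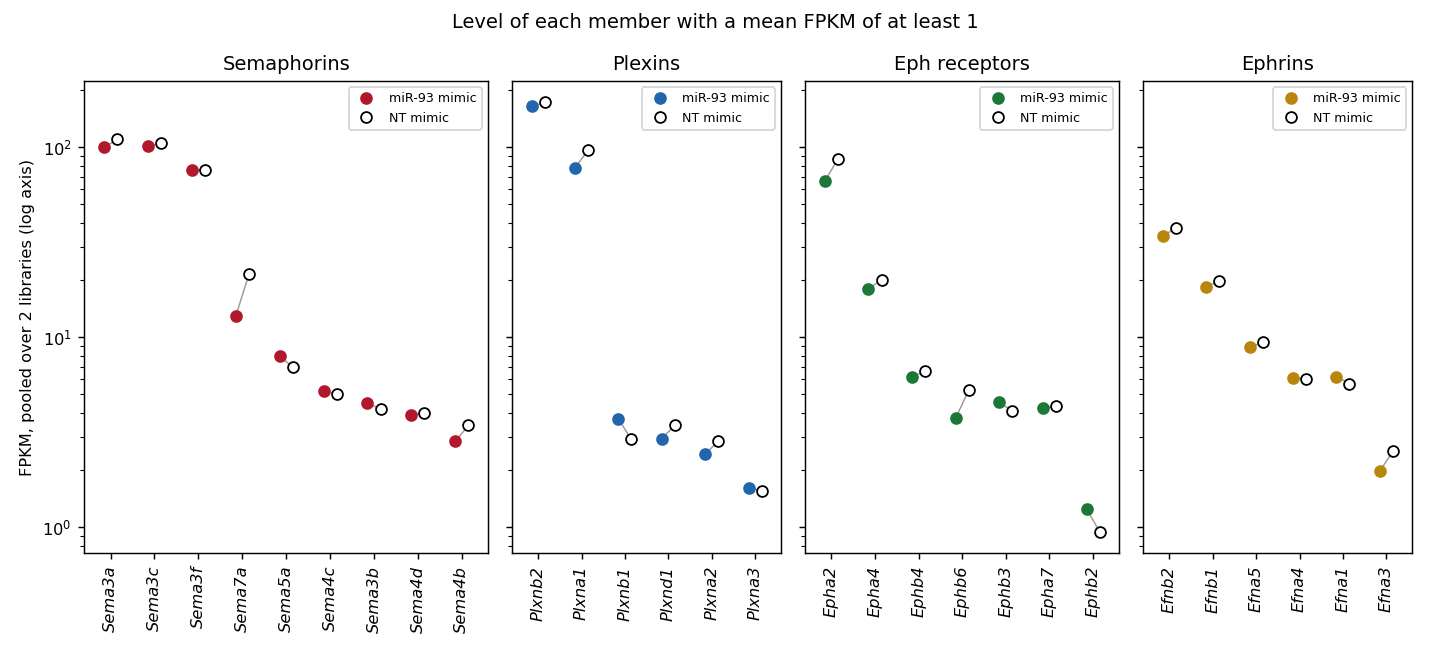
FPKM (log axis) of the 28 members with a mean FPKM of at least 1, by family and in order of mean level; filled points are the miR-93 mimic and open points the NT mimic, each 1 value over 2 libraries with no error bar. The pair of Sema7a points (12.9 with the miR-93 mimic, 21.4 with the NT mimic) is the widest apart, and a few genes carry most of each family.

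Among the secreted semaphorins, the abundant ones differed little. Sema3a, which repels growing axons, stood at 99.8 FPKM under the miR-93 mimic against 110 under the NT mimic (log2 −0.15). Sema3c, another class 3 ligand, stood at 101 FPKM with the miR-93 mimic, against 105 with the NT mimic (log2 −0.05). Sema3f, a ligand that prefers neuropilin 2, stood at 76.3 FPKM under the miR-93 mimic against 75.9 under the NT mimic (log2 0.01). These 3 genes made up 87.3% of the summed semaphorin FPKM with the miR-93 mimic, against 86% with the NT mimic. Sema3b was far lower, at 4.53 FPKM with the miR-93 mimic, against 4.17 with the NT mimic (log2 0.11). Neighbours in the genome differed widely in level. On chromosome 5, within 12383165 to 17236086 in mm9, Sema3a and Sema3c had mean FPKM values of 105 and 103. Between and beside them, Sema3d had 0.229 FPKM with the miR-93 mimic, against 0.175 with the NT mimic, and Sema3e had 0.263 with the miR-93 mimic, against 0.295 with the NT mimic.

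The other membrane semaphorins above the floor stood far below Sema3a, Sema3c and Sema3f, and none came near the 0.5 line. Sema4b, a class 4 ligand with an 8mer, had 2.83 FPKM under the miR-93 mimic against 3.44 under the NT mimic (log2 −0.27). Sema4c, a ligand of plexin B2, had 5.21 FPKM with the miR-93 mimic, against 5.06 with the NT mimic (log2 0.04). Sema4d, the ligand of plexin B1, had 3.92 FPKM under the miR-93 mimic against 3.98 under the NT mimic (log2 −0.02). Sema5a, which carries thrombospondin repeats, was the only member above the floor with an 8mer that stood above 0. It had 7.96 FPKM with the miR-93 mimic, against 6.96 with the NT mimic (log2 0.19), and 6.52% of named genes at 5 to 20 FPKM had a log2 ratio as high.

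Plexins were dominated by Plxnb2 and Plxna1, which together gave 95.8% of the plexin FPKM with the miR-93 mimic, against 96.1% with the NT mimic. Plxnb2, a receptor for class 4 semaphorins, was the most abundant member at 164 FPKM under the miR-93 mimic against 172 under the NT mimic (log2 −0.07). The authors' table marks that row as FAIL, meaning that their test was not completed there. Plxna1, the signalling partner of neuropilins for class 3 ligands, had 78 FPKM with the miR-93 mimic, against 96.4 with the NT mimic (log2 −0.30), and 11.1% of named genes at 20 to 100 FPKM were as low. Plxnb1, the receptor of Sema4d, held no match to the seed and had 3.71 FPKM under the miR-93 mimic against 2.9 under the NT mimic (log2 0.35). It was the highest of the plexins above the floor by log2 ratio, and 8.73% of named genes at 1 to 5 FPKM were as high. Plxnd1, which binds Sema3e, stood at 2.93 FPKM with the miR-93 mimic, against 3.45 with the NT mimic (log2 −0.23). Plxna2 stood at 2.44 FPKM under the miR-93 mimic against 2.83 under the NT mimic (log2 −0.21) and held a 6mer alone. Plxna3 stood at 1.62 FPKM with the miR-93 mimic, against 1.55 with the NT mimic (log2 0.06). None of these differed by more than Plxnb1 in size.

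Sema7a binds plexin C1 and the integrin of the subunits alpha 1 and beta 1. Plxnc1 was near 0, at 0.016 FPKM with the miR-93 mimic, against 0.0103 with the NT mimic. The integrin genes were well above the floor. Itgb1 had 1341 FPKM under the miR-93 mimic against 1602 under the NT mimic (log2 −0.26). Itga1 had 22.6 FPKM with the miR-93 mimic, against 17.1 with the NT mimic (log2 0.40), and neither reached the 0.5 line.

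Ephb6 and Epha2 had the lowest log2 ratios after Sema7a among members above the floor, both in genes with no match to the seed, and neither reached the 0.5 line. Ephb6, an Eph receptor without kinase activity, had 3.75 FPKM under the miR-93 mimic against 5.28 under the NT mimic (log2 −0.48), and 5.59% of named genes at 1 to 5 FPKM were as low. Epha2, a receptor for ephrin-A1, had 66.4 FPKM with the miR-93 mimic, against 86.6 with the NT mimic (log2 −0.38), and 6.76% of named genes at 20 to 100 FPKM were as low. The receptors with 8mers differed less. Epha4, which binds ephrins of both types, had 17.9 FPKM under the miR-93 mimic against 20.1 under the NT mimic (log2 −0.16), with its 8mer at bases 49 to 56 and a 7mer-m8 at bases 68 to 74 of the 3′ UTR. Epha7 held 3 sites of 7 or 8 bases and had 4.22 FPKM with the miR-93 mimic, against 4.35 with the NT mimic (log2 −0.05). Ephb4, the receptor of ephrin-B2, had 6.17 FPKM under the miR-93 mimic against 6.63 under the NT mimic (log2 −0.10). Ephb3 had 4.55 FPKM with the miR-93 mimic, against 4.09 with the NT mimic (log2 0.15) and no match. Ephb2, close to the floor, had the highest log2 ratio of the 28 members. It had 1.25 FPKM under the miR-93 mimic against 0.948 under the NT mimic (log2 0.36), and 8.13% of named genes at 1 to 5 FPKM were as high.

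Among the ephrins above the floor none came near the 0.5 line. Efnb2 and Efnb1, the abundant B-type ligands, gave 68.9% of the ephrin FPKM with the miR-93 mimic, against 70.6% with the NT mimic. Efnb2 had 34 FPKM with the miR-93 mimic, against 37.6 with the NT mimic (log2 −0.15). Efnb1 had 18.4 FPKM under the miR-93 mimic against 19.8 under the NT mimic (log2 −0.10), with a 7mer-m8. The A-type ligands were lower in level. Efna5 stood at 8.85 FPKM with the miR-93 mimic, against 9.4 with the NT mimic (log2 −0.09). Efna1, Efna3 and Efna4 lie side by side on chromosome 3 (89075651 to 89141950, mm9), and of these Efna3 alone was below 0. Efna1, a ligand of Epha2, had 6.21 FPKM under the miR-93 mimic against 5.7 under the NT mimic (log2 0.12). Efna3 had 1.98 FPKM with the miR-93 mimic, against 2.51 with the NT mimic (log2 −0.33). Efna4 had 6.12 FPKM under the miR-93 mimic against 6.03 under the NT mimic (log2 0.02).

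**Figure D2:**
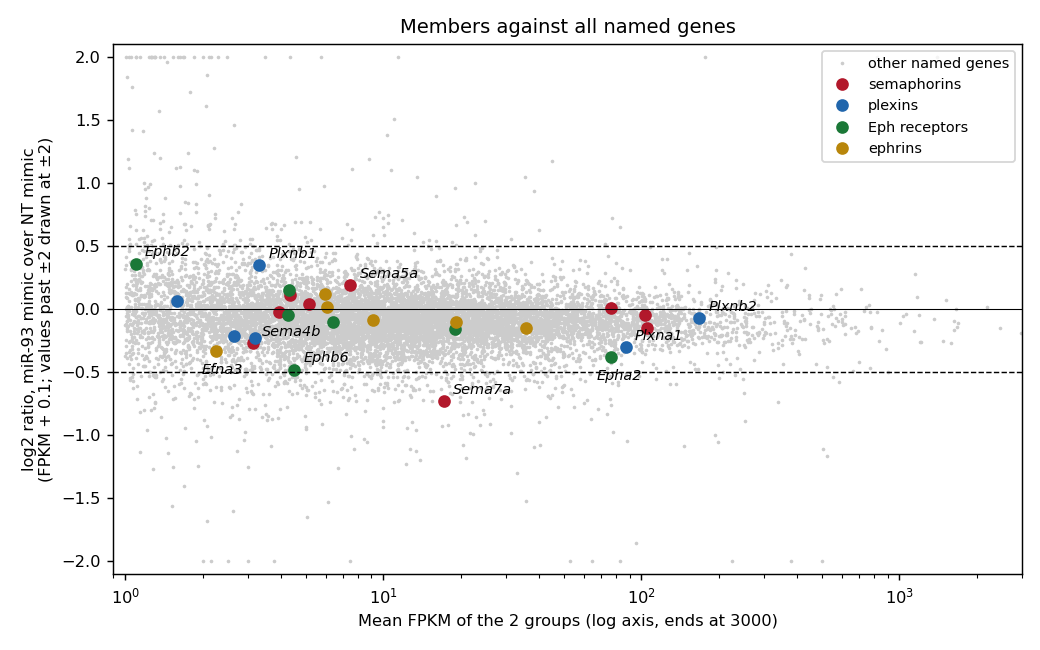
The log2 ratio of the miR-93 mimic over the NT mimic against the mean FPKM (log axis) for the 28 members (coloured by family) and all other named genes (grey); 5 genes past 3000 FPKM are not drawn and 45 log2 ratios past 2 in size are drawn at the edge. Sema7a at −0.73 is the only one of the 28 beyond the dashed lines at 0.5 and −0.5.

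The other 23 members were under the floor. In 15 of them FPKM was under 0.1 in both groups, namely Efna2, Epha1, Epha3, Epha5, Epha6, Epha8, Epha10, Ephb1, Plxna4, Plxnb3, Plxnc1, Sema4f, Sema5b, Sema6b and Sema6d. Epha3, Epha5 and Sema5b were listed at 0 in both groups and Epha6 with the miR-93 mimic alone. The Sema5b row shares its locus with Gm5963, which had 18.3 FPKM with the miR-93 mimic, against 24.2 with the NT mimic. The other 8 genes had a mean FPKM of 0.1 to 1, and 7 of them were higher with the miR-93 mimic. Efnb3, a B-type ephrin, had 0.448 FPKM with the miR-93 mimic, against 0.232 with the NT mimic (log2 0.72). Sema4a had 0.378 FPKM under the miR-93 mimic against 0.187 under the NT mimic (log2 0.73), and Sema4g, which held a 7mer-m8, had 0.273 FPKM with the miR-93 mimic, against 0.116 with the NT mimic (log2 0.79). Sema6a, Sema6c, Sema3d and Sema3g were also higher with the miR-93 mimic, by less than 0.5 on the log2 scale, and Sema3e was lower. Such differences were common at this level. Of the 2861 named genes between 0.1 and 1, 60.9% were higher with the miR-93 mimic, 19.3% were higher by 0.5 or more and 5.73% lower by as much, so these values give no result about the families.

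An 8mer was present in a larger share of members than of all named genes. Every member above the floor had an annotated 3′ UTR, and 6 of 28 (21.4%) held an 8mer as best match, beside 452 of 9894 named genes (4.57%). Another 4 members (Efnb1, Ephb4, Sema3c and Sema4c) had a 7mer-m8 as best match and 2 (Sema3a and Plxna3) a 7mer-A1, so that 12 of 28 (42.9%) held a site of 7 or 8 bases, beside 22.5% of all. The median 3′ UTR was 1314 bases in members and 1202 in all named genes. Per 100 kb of 3′ UTR there were 10.1 matches of the 8mer in members and 2.81 in all named genes. The 7mer-m8 came to 10.1 in members and 7.73 in all, and the 7mer-A1 to 5.04 in members and 6.71 in all. Matches of the 6mer alone came to 20.1 in members and 26.2 in all named genes. No test was made of these shares, and 6 genes is a small number.

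In each match class, members had a lower median log2 ratio than members without a match, most so in the 8mer and 6mer classes. The median log2 ratio was −0.22 for the 6 members with an 8mer and −0.01 for the 12 members without any match, beside −0.26 and −0.08 for all named genes in those classes. Of the 6, 5 were below 0, with log2 ratios of −0.73 for Sema7a, −0.30 for Plxna1, −0.27 for Sema4b, −0.16 for Epha4 and −0.05 for Epha7, and Sema5a stood at 0.19. By the 0.5 line 1 of the 6 was lower (16.7%), beside 23.2% of all named genes with an 8mer and 2.27% of those without a match. By the longest 3′ UTRs, Epha7 with 3 sites differed less than Sema7a with 1. The shortest annotated 3′ UTR of Epha7 holds none of its 3 sites, and which form these cells make was not tested. The 4 members with a 7mer-m8 and the 2 with a 7mer-A1 as best match lay between −0.15 and 0.06. Their medians were −0.07 and −0.04, beside −0.14 and −0.08 for all named genes in those classes. The 4 members with a 6mer as best match had a median of −0.22, the same as the 8mer class. Among all named genes with a 6mer as best match the median was −0.07.

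**Figure D3:**
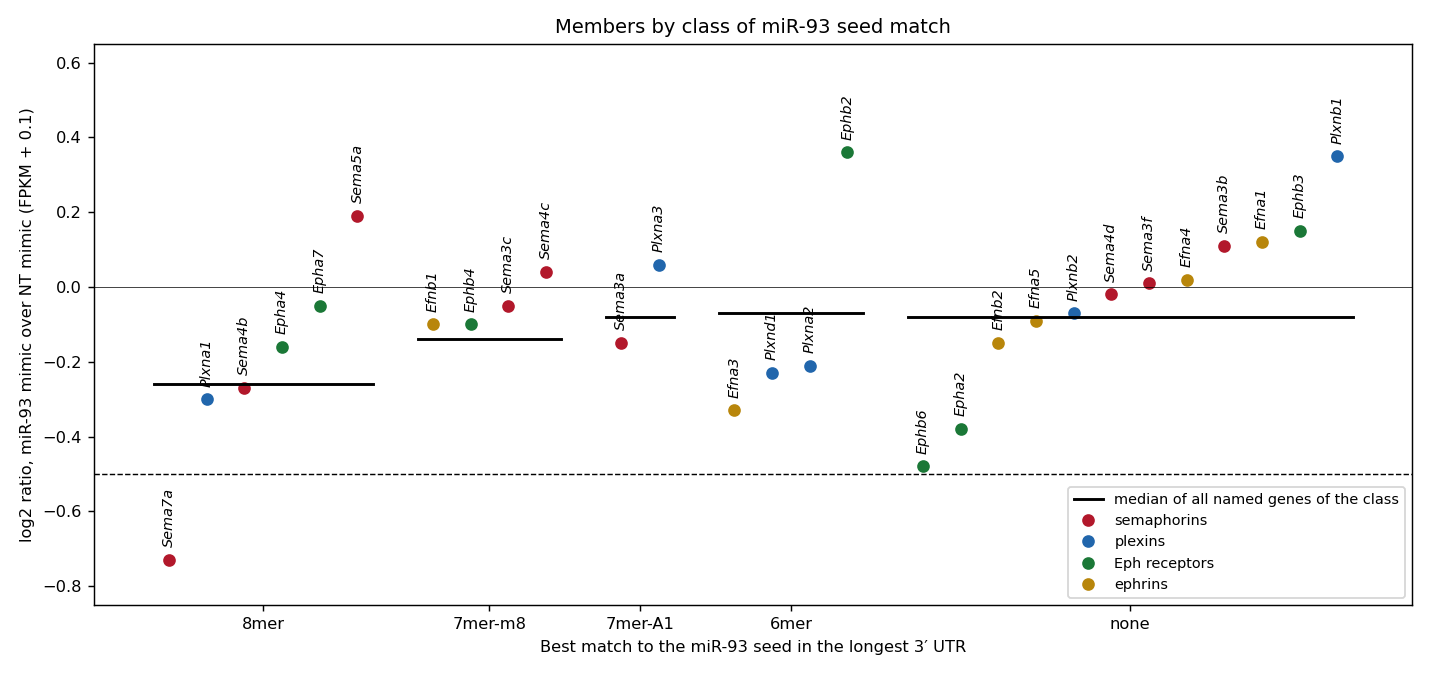
The log2 ratio of the miR-93 mimic over the NT mimic for the 28 members, grouped by best match to the miR-93 seed in the longest 3′ UTR; black lines are the medians of all named genes of each class and the dashed line marks −0.5. Sema7a is lowest in the 8mer class, while Ephb6 and Epha2, at −0.48 and −0.38, held no match.

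A list of partner genes of these families also took in Ntn1, Dcc, Unc5b, Robo1 and Slit2, genes of the netrin and Slit guidance systems. Of its 91 genes found in the table, 72 were above the floor, with a median log2 ratio of −0.12. Among these 72, 4 were lower and 1 higher by 0.5 or more. Over all named genes above the floor 3.83% were lower and 1.81% higher by as much, with a median of −0.09, so these counts are near the background. The coreceptor Nrp2, neuropilin 2, had 41.6 FPKM under the miR-93 mimic against 64.7 under the NT mimic (log2 −0.64), and 1.68% of named genes at 20 to 100 FPKM were as low. Nrp1, the other neuropilin, had 65.8 FPKM with the miR-93 mimic, against 63.5 with the NT mimic (log2 0.05). Rras2, a GTPase related to R-Ras, had 163 FPKM under the miR-93 mimic against 238 under the NT mimic (log2 −0.54). The lower genes also included a protease and an actin regulator. The metalloprotease gene Adam9 had 109 FPKM with the miR-93 mimic, against 164 with the NT mimic (log2 −0.60). Cfl2, a cofilin that severs actin filaments, had 34.9 FPKM under the miR-93 mimic against 50 under the NT mimic (log2 −0.52). All 4 held a site of 7 or 8 bases, as did 54.4% of the 351 named genes with an annotated 3′ UTR that were lower by 0.5 or more. Of the 153 such genes that were higher by as much, 7.19% held one. Sh3bp1, a GTPase-activating protein that binds plexins, was the 1 higher partner and held a 6mer alone. It had 3.25 FPKM with the miR-93 mimic, against 1.93 with the NT mimic (log2 0.72). With log2 ratios centred on the median of all named genes, Rras2 at −0.46 and Cfl2 at −0.43 no longer reached the line, and Rnd2, a small GTPase, reached it at 0.55. Centring also turned the calls over all named genes from 416 lower and 197 higher into 267 lower and 271 higher. None of the 22 partners of Eph receptors and ephrins above the floor reached 0.5, with log2 ratios from −0.35 to 0.30.

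The podocyte label was only partly borne out by markers. Of 14 podocyte genes, 9 had a mean FPKM of at least 1, Synpo, Actn4 and Kirrel among them, whereas Ptpro, Tcf21 and Lmx1b were under 0.1 and Nphs1 was 0.102. The summed FPKM of the 14 was 459 with the miR-93 mimic, against 471 with the NT mimic, and Synpo and Actn4 made up most of it. All 7 endothelial markers were under 1, with a sum of 0.534 with the miR-93 mimic, against 0.509 with the NT mimic. Of the 6 mesangial and smooth muscle genes 3 reached 1, with Pdgfrb at a mean of 19.6, and their sum was 23.3 with the miR-93 mimic, against 21.3 with the NT mimic. Of the 5 tubular markers 1 reached 1, namely Lrp2, and their sum was 31.7 with the miR-93 mimic, against 47.5 with the NT mimic. Of the 5 immune markers 1 reached 1, namely Cd68, and their sum was 5.29 with the miR-93 mimic, against 3.83 with the NT mimic. The tubular sum came almost wholly from Lrp2 and the immune sum from Cd68, so these sums describe single genes and do not measure amounts of a cell type. The part of these differences in the results above was not tested. In such bulk RNA, fewer cells of a type and less RNA per cell cannot be told apart. Of the 28 members, 5 shared their locus with another row, which had an FPKM of at most 0.22, and the kit does not mark strand, so reads of overlapping genes on opposite strands cannot be told apart.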

How the data were processed

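Poly-A RNA libraries (2 per group, called biological replicates in the study's methods) were made with an Illumina TruSeq kit and sequenced as paired ends. The submitters' processing notes name FastQC, Trimmomatic, TopHat2 2.0.4, Cufflinks, Cuffdiff and build mm9, without further versions. The deposited FPKM values were pooled by the authors over the libraries of a group. The columns of the authors' own comparison (log2 fold change, test statistic, p and q) and the 4 shorter sheets that excerpt it were not used.

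Of 29286 rows, 25327 carried 1 gene name. Rows with no name (3650), several genes (287) or a name turned into a date (22) were left out. The log2 ratio was that of FPKM plus 0.1, which understates differences of low genes. A floor of 1 on the mean FPKM of the groups was used, and a difference was called at 0.5 or more in size. Alternatives were pseudocounts of 0.01 and 1, floors of 5 and none, calls at 1 and 0.25, centring on the median of named genes, and the shortest 3′ UTR. Longest 3′ UTRs of at least 30 bases came from GENCODE M21 (GRCm38), matched by symbol for 9894 of 10855 named genes (1038 by an older symbol). That build was used for sites alone, and mm9 for loci. Values of some marker genes are not reported here. Members, gene lists and settings were chosen with earlier results of these data known. Named genes were all called members and partners, the 5 most abundant members, and members under 0.1 in both groups, and the other members were added after their values were seen. Python 3.11.15, pandas 2.3.3, numpy 2.4.6 and matplotlib 3.10.9 were used.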

Additional observations from a re-analysis of the deposited data

How the results depend on the processing

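The log2 ratio of Sema7a was −0.74 with a pseudocount of 0.01, −0.69 with a pseudocount of 1 and −0.64 when centred. The floors and the removal of rows marked FAIL or HIDATA only select rows, so they could not change the ratio of a gene. Of 122 alternative values, 108 moved by no more than 0.1 on the log2 scale or 1.5 times for a count, and 0 changed sign from a called value. The 122 include gene values under such row selections, which were fixed in advance. The count of members with a site was likewise fixed under other pseudocounts and under centring. The share of 108 in 122 is thus no measure of how stable the results were. Calling at a log2 ratio of 1 left 0 members and 0 partners lower, and 0 of either higher. Of all named genes above the floor, 0.47% were lower and 0.58% higher by as much. Calling at 0.25 gave 6 members lower and 2 higher, and 15 partners lower and 4 higher, beside 17.5% and 6.08% of all named genes. Without a floor, 3 members (Efnb3, Sema4a and Sema4g) and 5 partners were higher, the median of members was 0.02, and 6% of named genes were higher. Centring gave 2 partners lower and 2 higher, beside 2.46% and 2.5% of all named genes above the floor. A floor of 5 left 4 partners lower and 0 higher, beside 3.38% and 0.69% of all named genes above it. With a pseudocount of 1 the log2 ratio of Sh3bp1 was 0.54. Without rows marked FAIL or HIDATA, an alternative chosen after seeing the data, the median of members was −0.09. Libraries could not be left out in turn. No paired analysis was possible because the table holds 1 value per group. Depth per library is unknown, so no precision can be given for any level.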
